A study of Homo sapiens with 8 samples.

Results

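The accessible chromatin of MEF2A, MEF2C and MEF2D was described peak by peak in 2 human myeloma cell lines under 4 treatments. All peaks that the deposited annotation assigns to 1 of these 3 genes were taken, which gave 17 of the 62528 peaks of the series: 3 for MEF2A, 7 for MEF2C and 7 for MEF2D. The genes were chosen by their symbols, and with the knowledge that a MEF2C peak was higher under pomalidomide and under the combination. The values of the members in the comparisons of those libraries with DMSO, and of the combination with GNE-781, are therefore descriptions and are given with no p-value. JJN3 and KMS11 are established lines grown from multiple myeloma, a cancer of plasma cells. ATAC-seq, in which a transposase cuts and tags accessible DNA, was run after 48 h of DMSO (the solvent), 200 nM pomalidomide, 40 nM GNE-781 or both drugs together at these doses. Each line and treatment had 1 library, 8 in all, and no other genetic change or agent is named for these samples in the labels. Pomalidomide binds cereblon and so leads to the breakdown of the Ikaros factors IKZF1 and IKZF3. GNE-781 is an inhibitor of the CREBBP and EP300 bromodomains, domains that read acetylated lysine.

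MEF2 proteins are transcription factors with a MADS domain that bind an A/T-rich DNA element as dimers. Class IIa histone deacetylases bind MEF2 and keep its targets silent, and calcium-dependent kinases and calcineurin signalling relieve that repression, after which CREBBP and EP300 can act as coactivators. In the B lineage MEF2C takes part in the response to the antigen receptor, MEF2B is a recurrent target of mutation in germinal centre lymphoma, and MEF2D is fused to other genes in a subset of acute lymphoblastic leukaemia. All of these are also well known from muscle, where the family was first described.

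Library totals over all peaks ran from 1366628 (JJN3, DMSO) to 3218581 counts (JJN3, pomalidomide) in JJN3, and from 2981408 (KMS11, GNE-781) to 5435673 (KMS11, combination) in KMS11. In each line both libraries with pomalidomide were deeper than both without it, and the part of depth in the values below was not tested. Under DMSO the median member peak had 13 counts in JJN3 and 59 in KMS11. Of 7 plasma cell marker genes 5 had a promoter peak, including SDC1, IRF4 and XBP1, with summed levels of 165 to 183 CPM (counts scaled to the library total) in JJN3 and 175 to 194 in KMS11. TNFRSF17 and JCHAIN, also plasma cell markers, had no peak in the table. Promoter peaks of T cell, myeloid and muscle markers were absent (0 of 3, 0 of 4 and 0 of 3 genes), and of 4 B cell markers only PAX5 had one, at 0.97 to 3.85 CPM in JJN3 and 9.7 to 10.1 in KMS11. Of 3 endothelial markers PECAM1 had one.

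Promoter sequences of 2 MEF2C starts and a stretch of MEF2A are printed below. They are taken from RefSeq (GRCh38.p14), which lists 11 promoter windows for the 3 genes, and each window here is the 250 bases before a start. The only MEF2D window overlaps MEF2D peak 4 and not MEF2D peak 2, and it is not printed. Of the 11 windows 6 overlapped a member peak, against 44.4% of all 35116 windows in the table. The first sequence below lies before an internal MEF2C start (5:88785512-88785761, minus strand), and 130 of its bases lie in MEF2C peak 6, the member with the largest fitted change against DMSO. Capitals mark the AP-1 motif TGACTCA. The second is the window before the main MEF2C start (5:88883185-88883434, minus strand), which lies whole in MEF2C peak 3. The third is a stretch of 30 bases in MEF2A peak 1 (15:99565951-99565980, plus strand), with a match to the MEF2 motif CTANNNNTAG in capitals.
MEF2C internal start: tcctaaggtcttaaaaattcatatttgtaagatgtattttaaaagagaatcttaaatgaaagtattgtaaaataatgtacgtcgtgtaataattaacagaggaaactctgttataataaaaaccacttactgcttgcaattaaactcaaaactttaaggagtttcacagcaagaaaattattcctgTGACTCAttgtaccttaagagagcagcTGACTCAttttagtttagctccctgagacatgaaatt
MEF2C main start: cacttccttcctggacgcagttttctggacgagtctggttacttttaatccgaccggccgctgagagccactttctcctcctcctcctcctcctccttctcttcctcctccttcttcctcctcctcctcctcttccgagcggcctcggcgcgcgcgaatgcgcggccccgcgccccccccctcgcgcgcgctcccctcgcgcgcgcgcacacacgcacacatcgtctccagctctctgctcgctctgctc
MEF2A site: ggcttgtctcCTAAAAATAGccccggtgtg

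The internal MEF2C window held 30% G and C bases, against 66% at the main MEF2C start and a median of 58% over all windows. Its 2 AP-1 matches lay 58 and 31 bp before the start, at 5:88785569-88785575 and 5:88785542-88785548, and so 57 and 84 bp outside the edge of MEF2C peak 6. An AP-1 match on either strand occurred in 4.2% of all windows, and 2 or more in 0.182%. The MEF2 match in MEF2A lay 14 bp before a MEF2A start, at 15:99565961-99565970, and 2.36% of all windows held such a match on either strand. A MAF half-site (TGCTGA, in 14% of windows), an Ikaros motif (TGGGAA, 20.8%), an IRF tandem (GAAANNGAAA, 3.02%) and an ETS-IRF composite (GGAANNGAAA, 2.41%) were also searched on both strands. None of these 4 occurred in the 2 MEF2C windows printed here. Other windows did hold an Ikaros match, in MEF2A peak 1 (15:99565775-99565780) and in MEF2C peak 5 (5:88827433-88827438). MAF half-sites and a further Ikaros match also lay in MEF2C windows that are not printed. Of MEF2C peak 6 only the 130 bases in the window were searched. The motifs were chosen after the sequences had been seen, AP-1 and the other motifs can share bases, and a match is a description of letters only.

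Peaks are numbered along each gene in the direction of transcription. MEF2A lies on the plus strand of chromosome 15, MEF2C on the minus strand of chromosome 5 and MEF2D on the minus strand of chromosome 1. Peaks up to 1000 bp from the start of their annotated transcript are called promoter peaks here, which holds for 4 of the 17, while 12 lay in a gene and 1 was intergenic. MEF2D, the member with a known role in fusion-driven leukaemia, had the most accessible peaks per length. Its promoter, MEF2D peak 2 (1:156500577-156501487), reached 149 ± 18.7 CPM per kb (SD over 4 treatments) in JJN3 and 154 ± 14.5 in KMS11, a mean level per kb above that of 99.9% of all peaks. The MEF2A promoter, MEF2A peak 1 (15:99565048-99566210), had 30.1 ± 3.23 CPM per kb in JJN3 and 40.1 ± 4.22 in KMS11 and stood above 78.6% of peaks. The MEF2C promoter, MEF2C peak 3 (5:88883006-88883879), had 15.6 ± 4.99 CPM per kb in JJN3 and 16.6 ± 1.65 in KMS11 and stood above only 21.8%. The order of the promoters was thus MEF2D, MEF2A, MEF2C in both lines, with gaps larger than the spread over treatments.

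**Figure D1:**
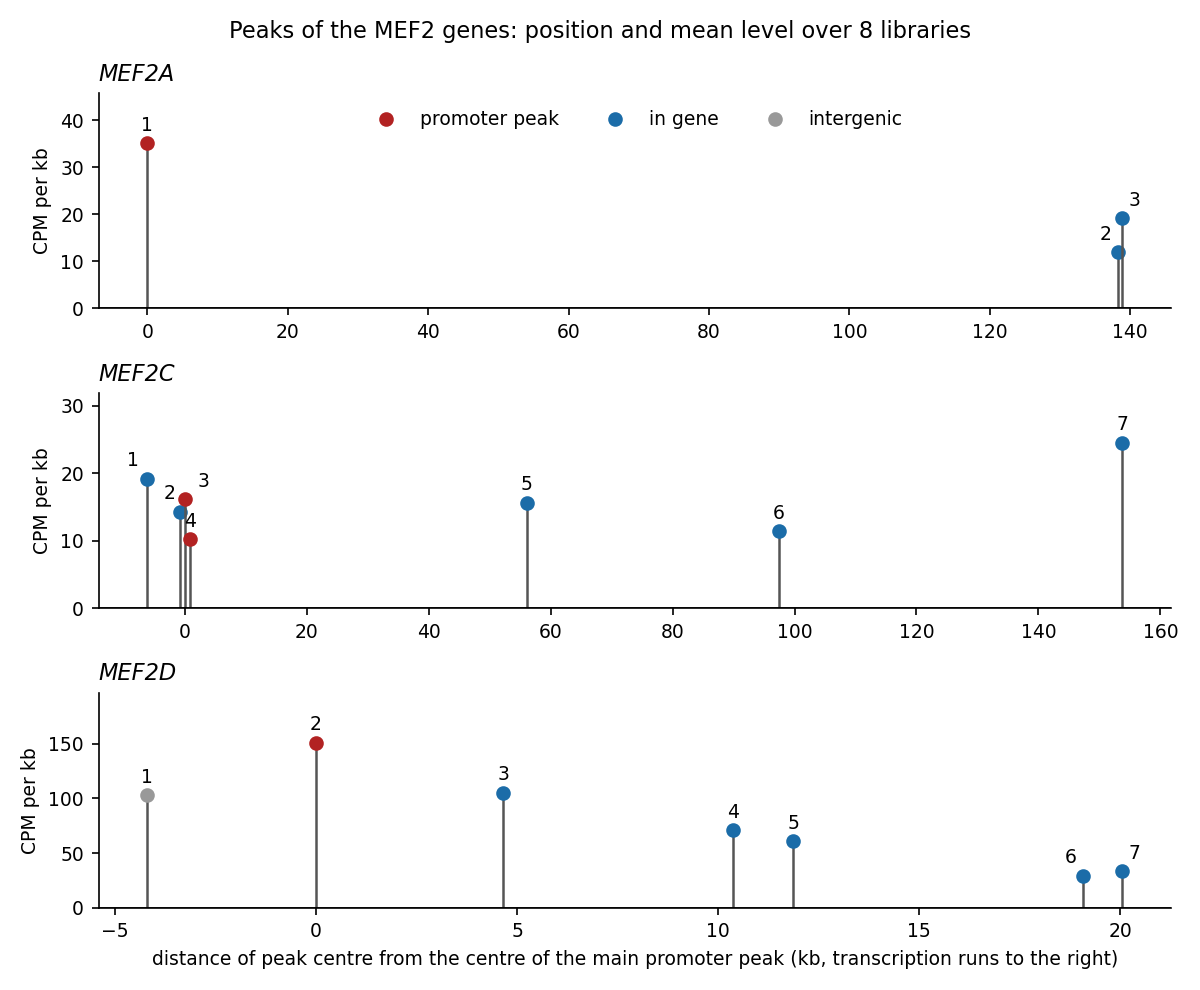
Mean level of each peak over the 8 libraries (y axis, CPM per kb of peak) against the distance of its centre from that of the main promoter peak (x axis, kb), for each gene, with peaks numbered in the direction of transcription. The MEF2D peaks reach 151 CPM per kb at the promoter and no MEF2C peak is above 24.5.

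Within a gene the levels per kb spread widely. In MEF2D they ran from 151 CPM per kb at the promoter (mean of 8 libraries) to 29.3 at peak 6 in the gene body, and peak 1, which is intergenic and 4036 bp upstream of the start, was at 103. In MEF2A the promoter stood at 35.1 and peaks 2 and 3, 137561 and 138265 bp from the start, at 11.9 and 19.1. By this mean the MEF2C promoter was not the most open peak of its gene. MEF2C peak 7 in the gene body had 24.5 CPM per kb and peak 1 had 19.2, against 16.1 at the promoter. Peak 4, a second promoter peak, was the lowest at 10.2. The lines differed in this order. Peak 1 had 34.4 in JJN3 and 4.07 in KMS11, where it was the lowest MEF2C peak. Peak 7 had 19.3 and 29.8, and peak 4 had 6.07 and 14.4. The median of all peaks was 23.2 over the 8 libraries. By their means over the same libraries 6 of the 7 MEF2C peaks lay under it and all 7 MEF2D peaks above it. In JJN3 alone MEF2D peaks 6 and 7 were at 17.1 and 14.9.

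MEF2C peak 6 (5:88785632-88786310, 679 bp) lay in the gene, 96917 bp from the start of the transcript that the deposited annotation assigns to it and 121 bp before the internal RefSeq start whose sequence is printed above. In JJN3 it held 2 counts with DMSO, 26 with pomalidomide, 4 with GNE-781 and 14 with the combination, which are 1.5, 8.66, 2.56 and 6.79 CPM. In KMS11 it held 12, 56, 18 and 120 counts in the same order, which are 3.11, 12.0, 5.82 and 21.4 CPM. In each line both pomalidomide libraries stood above both libraries without the drug, a pattern found in 7.12% of the 62234 peaks tested and in 1 of the 17 members. Within lines there is no replicate, and the intervals that follow cover counting error only, with reads that may be PCR copies. In JJN3 the ratio to DMSO was 5.76 under pomalidomide (95% counting interval 1.44 to 50.1) and 4.52 under the combination (1.04 to 40.9). In KMS11 it was 3.87 (2.05 to 7.92) and 6.88 (3.8 to 13.7). Under GNE-781 alone the ratios were 1.71 (0.245 to 18.9) and 1.87 (0.854 to 4.27), and both intervals include 1. The ratios under pomalidomide and the combination are among the values that chose the genes, so their intervals are a description and not a test.

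**Figure D2:**
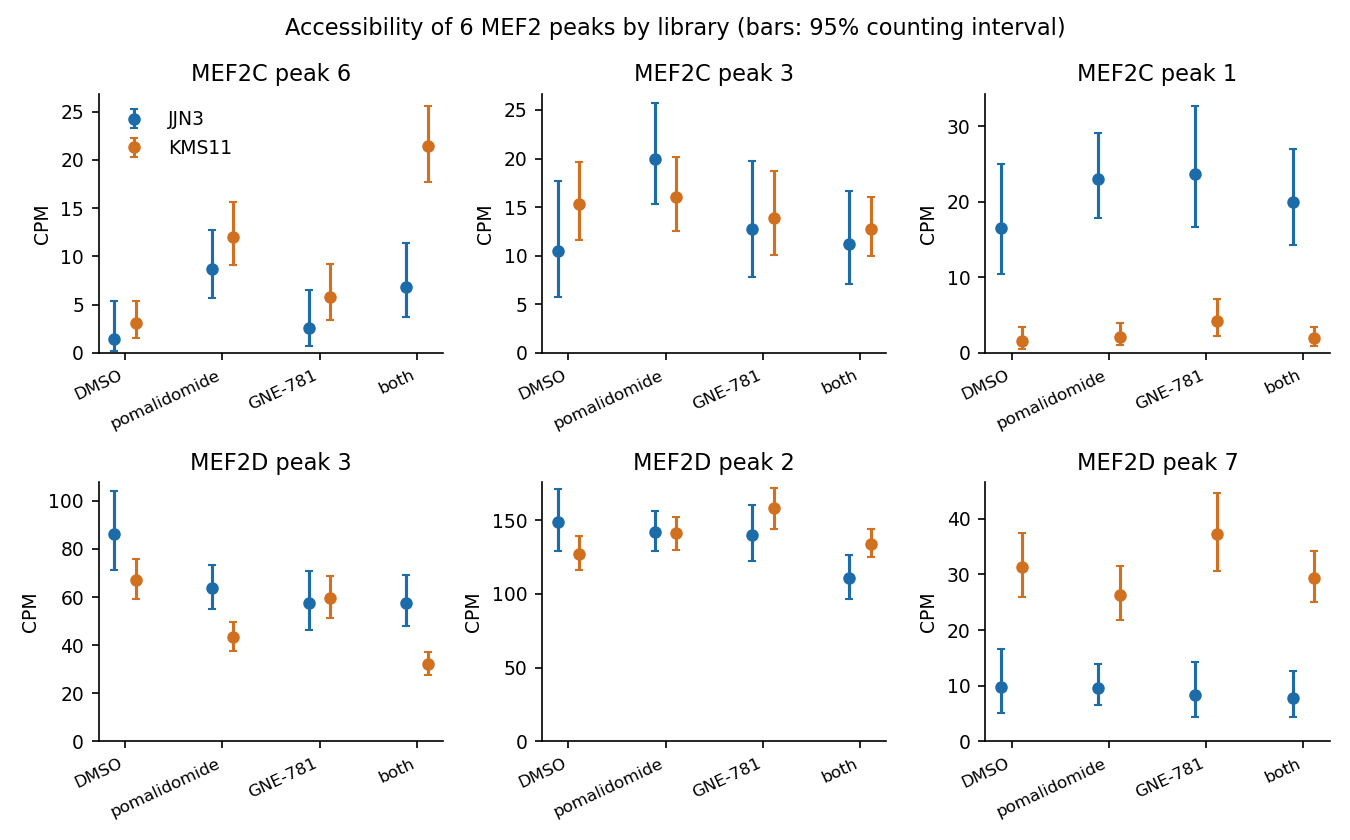
CPM (y axis) of 6 MEF2 peaks under each treatment (x axis) in JJN3 (blue) and KMS11 (orange), 1 library per point with its 95% counting interval as bar. MEF2C peak 6 is at 8.66 and 6.79 CPM in the JJN3 libraries with pomalidomide against 1.5 and 2.56 without it, and at 12.0 and 21.4 against 3.11 and 5.82 in KMS11.

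The model over both lines, in which the line is a block and a peak is called at an adjusted p under 0.05 over all peaks, placed MEF2C peak 6 at a log2 change of 2.16 ± 0.45 (SE) under pomalidomide, or 4.48-fold, and of 2.60 ± 0.43 under the combination, or 6.08-fold. The combination stood 1.74 ± 0.39 above GNE-781 alone. Under pomalidomide 1 of the 17 members was called, this peak, and 1.25% of all peaks. Under the combination 2 of 17 were called, against 4.79% of all peaks, and for the combination against GNE-781 1 of 17, against 1.09%. Since these contrasts chose the genes, nothing is read from the counts. Calls at MEF2C peak 6 were lost in some fits with a KMS11 library left out. Without the KMS11 DMSO library its log2 change was 2.13 under pomalidomide and 2.60 under the combination. Without the KMS11 combination library it was 1.88 under the combination and 1.04 against GNE-781. Without the KMS11 GNE-781 library it was 1.85 against GNE-781. None of these values was called. Fewer of all peaks were called in the same fits too, so the loss is not particular to this peak. Without the KMS11 pomalidomide library the change under pomalidomide was larger, at 2.86. DESeq2 gave 2.21 ± 0.66, 2.53 ± 0.66 and 1.68 ± 0.60 in the 3 contrasts and no adjusted p for this peak, whose counts fell under its filter on low means.

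The remaining contrasts among the drugs gave no call at MEF2C peak 6. They share libraries with the contrasts that chose the genes. Their p-values at this peak are therefore descriptions and no independent tests. GNE-781 alone against DMSO gave 0.87 ± 0.54 (edgeR quasi-likelihood test, Benjamini-Hochberg adjusted p = 0.842). The combination against pomalidomide gave 0.44 ± 0.32 (adjusted p = 0.811), with a higher level in KMS11 and a lower one in JJN3. The combination departed from the 2 single-agent changes added together by -0.43 ± 0.63 (adjusted p = 1). In a model with additive drug effects within each line, which draws on the combination libraries as well, the effect of pomalidomide differed between the lines by -0.02 on the log2 scale (adjusted p = 1), and that of GNE-781 by -1.02 ± 0.56, JJN3 minus KMS11 (adjusted p = 0.724).

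The share of all MEF2C counts that lay in peak 6 is a ratio within 1 library, so a factor common to all MEF2C peaks cancels in it. In JJN3 it was 3.51% with DMSO (95% exact binomial interval 0.428 to 12.1), 10.6% with pomalidomide (7.05 to 15.2), 4.08% with GNE-781 (1.12 to 10.1) and 9.66% with the combination (5.38 to 15.7). In KMS11 it was 7.41% (3.89 to 12.6), 21.8% (16.9 to 27.3), 12.9% (7.8 to 19.6) and 35.3% (30.2 to 40.6). In KMS11 the intervals of both pomalidomide libraries lay above that of DMSO, and in JJN3 all 4 intervals overlapped. Peak 6 was picked by its values in these same libraries, so the shares are a description and no separate check. Their intervals cover counting error only. The other 6 MEF2C peaks together stood at 38.8, 43.1, 39.5 and 39.2 CPM in KMS11 (DMSO, pomalidomide, GNE-781, combination), while in JJN3 they stood at 41.3, 73.0, 60.3 and 63.5. Outside peak 6 the KMS11 libraries thus lay close together, and in JJN3 the DMSO library, the shallowest of all, was the lowest.

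**Figure D3:**
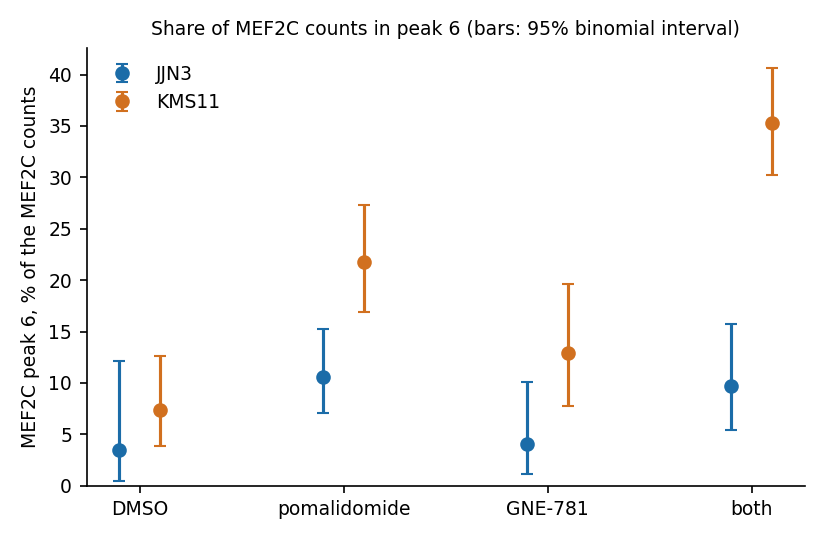
Percentage of the MEF2C counts that fall in MEF2C peak 6 (y axis) under each treatment (x axis) in JJN3 (blue) and KMS11 (orange), 1 library per point with its 95% exact binomial interval. The share is highest in the KMS11 combination library at 35.3%, and in each line both libraries with pomalidomide are above both without.

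The other MEF2C peaks were described the same way. MEF2C peak 2 (5:88883972-88884520), just upstream of the main promoter, had 6.01, 12.7, 8.98 and 17 CPM in JJN3 and 2.85, 5.79, 4.85 and 4.81 in KMS11 (DMSO, pomalidomide, GNE-781, combination). DMSO was the lowest of the 4 libraries in each line, and the model gave 1.02 ± 0.43 under pomalidomide and 1.12 ± 0.43 under the combination, neither called. Among the members its levels, centred within each line, followed those of peak 6 most closely (Pearson r = 0.803 over 8 libraries, which share depth and normalization). At the main promoter, MEF2C peak 3, JJN3 had 10.5, 19.99, 12.8 and 11.2 CPM and KMS11 had 15.3, 16.1, 13.9 and 12.8. The changes there were 0.40 ± 0.30 under pomalidomide, -0.01 under GNE-781 (adjusted p = 0.999) and -0.16 ± 0.31 under the combination, none called. Peaks 4 and 5 each held fewer than 10 counts in 3 of the 4 JJN3 libraries, where single ratios have wide intervals (MEF2C peak 4, pomalidomide over DMSO: 3.33, 0.773 to 30).

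Summed over its 7 peaks, MEF2C stood at 43.8, 80.7, 64.0 and 72.5 CPM in JJN3 and at 41.8, 54.0, 44.4 and 59.3 in KMS11. Both pomalidomide libraries were the highest in each line, and the share of all genes with this order was not computed. In KMS11 the order rested on the MEF2C peak called under pomalidomide. Without that peak KMS11 had 38.8, 43.1, 39.5 and 39.2 CPM (DMSO, pomalidomide, GNE-781, combination), with the combination below GNE-781. JJN3 kept the order without it, at 41.3, 73, 60.3 and 63.5 CPM. The MEF2C sum changed by 0.58 ± 0.18 under pomalidomide and by 0.58 ± 0.18 under the combination. Neither change was called over 25121 genes, of which 0.51% and 3.42% were called. With GNE-781 alone the MEF2C sum gave 0.27 ± 0.19 (edgeR adjusted p = 0.877). The MEF2A sum was 47.6, 45.5, 46.4 and 42.5 CPM in JJN3 and 65.0, 57.2, 54.0 and 53.4 in KMS11, and the changes against DMSO were -0.14 ± 0.17, -0.18 ± 0.18 and -0.24 ± 0.18 for pomalidomide, GNE-781 and the combination. The MEF2D sum was 418, 376, 350 and 325 CPM in JJN3 and 426, 415, 435 and 362 in KMS11, lowest under the combination in each line, with -0.09 ± 0.11, -0.10 ± 0.12 and -0.30 ± 0.12. GNE-781 against DMSO gave adjusted p = 0.931 for MEF2A and 0.944 for MEF2D (edgeR), and 0% of genes were called. In these 3 comparisons and between the lines, edgeR and DESeq2 called 0 of 12 sums. Between the lines a call also needed a 2-fold difference. There the MEF2A and MEF2C sums stood at -0.33 and 0.39 (edgeR adjusted p = 0.0218 and 0.00662), both short of 2-fold. Pomalidomide and the combination against DMSO chose the genes, so nothing is read from the count there.

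Of the MEF2D peaks, peak 3 (1:156496101-156496655, in the gene, 4124 bp from the start) was the member called under the combination. It had 86.4, 63.6, 57.7 and 57.7 CPM in JJN3 (DMSO, pomalidomide, GNE-781, combination), and 67.3, 43.3, 59.5 and 32.2 in KMS11. DMSO was the highest library in each line, and the combination was the lowest in KMS11. The model gave -0.54 ± 0.19 under pomalidomide, which was not called, and -0.84 ± 0.19 under the combination, a 1.79-fold lower level that was called. Without the KMS11 DMSO library the change was -0.78 and without the KMS11 combination library -0.55, and neither was called, nor was the DESeq2 value of -0.85 ± 0.25. Fewer of all peaks were called in each of these fits too. GNE-781 alone gave -0.35 ± 0.19 (edgeR adjusted p = 0.802). The combination against pomalidomide gave -0.30 ± 0.19 (edgeR adjusted p = 0.774). The MEF2D promoter, peak 2, had 149, 142, 140 and 111 CPM in JJN3 and 127, 141, 158 and 134 in KMS11, and changed by 0.05 ± 0.17, 0.13 ± 0.17 and -0.15 ± 0.17, none called. The levels of MEF2D peak 3 ran opposite to those of MEF2C peak 6 (r = -0.845 over 8 libraries, centred within each line), and both peaks were picked out by their values, so this is a description.

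The fitted values of all 7 MEF2D peaks were below 0 under the combination, with a median of -0.15 against 0 over all peaks, and 6 of them were not called. Peaks of 1 gene are not replicates, and the lines did not agree at each peak. The log2 ratio to DMSO was 0.332 at peak 6 in JJN3, and 0.075 at peak 2 and 0.029 at peak 5 in KMS11. The other ratios of MEF2D peaks under the combination were below 0. MEF2D peak 1, upstream of the gene (1:156504864-156505588), had 69.9, 65.3, 75.7 and 54.3 CPM in JJN3 and 85.9, 85.5, 90.9 and 69.6 in KMS11. In each line both of its pomalidomide libraries stood below both others, as at 4.78% of all peaks and at 1 of the 17 members, though the KMS11 DMSO and pomalidomide libraries differed by far less than their counting intervals. Its change was -0.05 ± 0.18 under pomalidomide and -0.33 ± 0.18 under the combination. Under pomalidomide the members' median was 0.13, against 0.02 over all peaks, with 12 of 17 above 0. Under the combination it was -0.09, against 0, with 6 of 17 above 0.

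**Figure D4:**
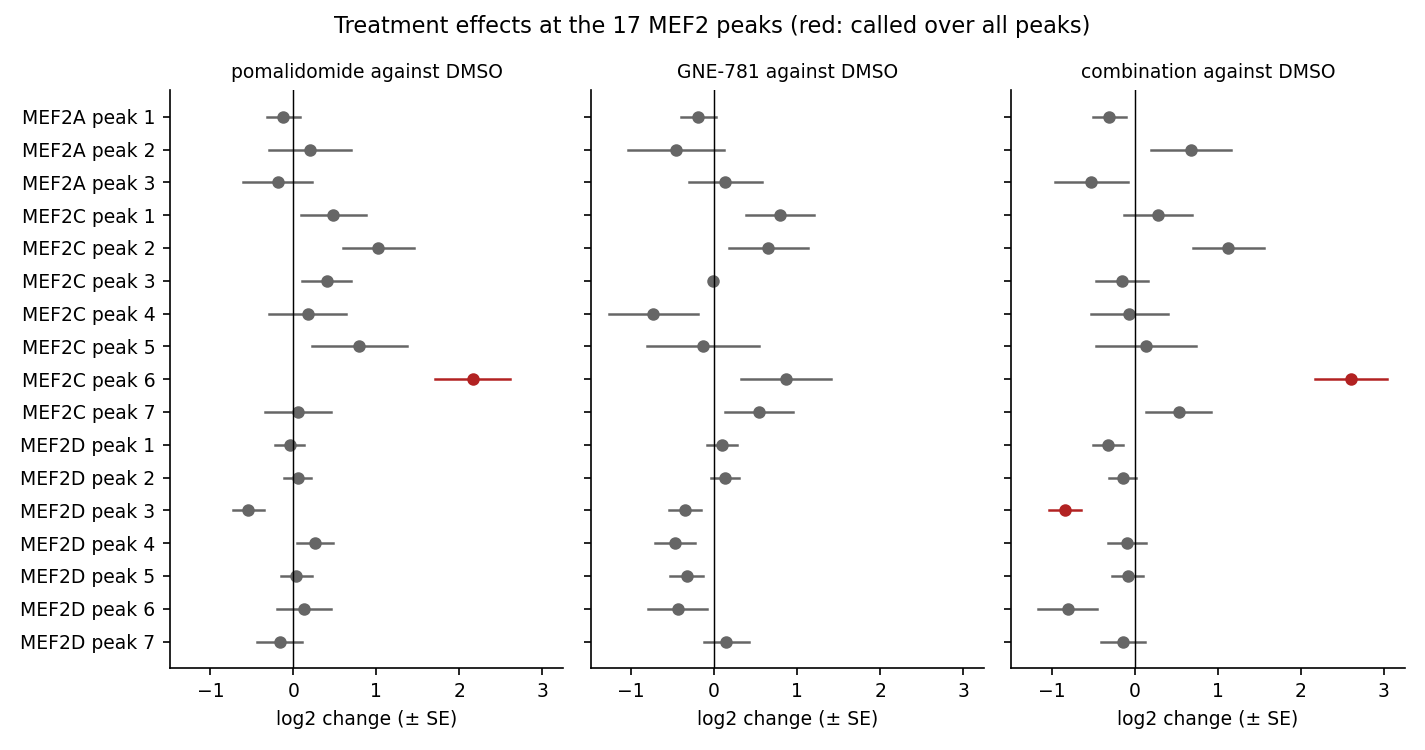
Log2 change against DMSO with SE (x axes) of the 17 MEF2 peaks (y axis) for pomalidomide, GNE-781 and the combination, with peaks called over all peaks in red; a point without a bar has a change near 0 for which no SE is given. MEF2C peak 6 stands at 2.16, 0.87 and 2.60, and MEF2D peak 3 at -0.84 under the combination is the other called value.

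The MEF2A promoter, peak 1, had 36.1, 38.3, 35.9 and 29.6 CPM in JJN3 and 53.8, 45.2, 44.0 and 43.3 in KMS11. Its changes were -0.12 ± 0.20, -0.19 ± 0.21 and -0.31 ± 0.20 for pomalidomide, GNE-781 and the combination, none called. The 2 peaks in the body of MEF2A held 4 to 38 counts a library, and neither was called in any comparison. With GNE-781 alone, 0 of the 17 members were called by edgeR, against 13 of 62234 peaks (0.0209%), and none of the members had an unadjusted p under 0.05. The lowest p was that of MEF2C peak 1, at 0.80 ± 0.41 (edgeR adjusted p = 0.771). For the combination against pomalidomide 0 of 17 were called, against 0.0112% of all peaks, and 1 had an unadjusted p under 0.05, MEF2D peak 6 (-0.94 ± 0.34, edgeR adjusted p = 0.466). That value was -0.20 without the KMS11 combination library and -1.28 without the JJN3 combination or the KMS11 pomalidomide library. For the departure from additive drug effects 0 of 17 were called, against 0% of all peaks, and 0 members had an unadjusted p under 0.05, with the lowest p at MEF2C peak 1 (-0.997 ± 0.54, edgeR adjusted p = 1). DESeq2 called 0 members and 0 of all peaks in these 3 comparisons.

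The lines differed most at the MEF2C region upstream of the promoter and at the most downstream MEF2D peaks. The comparison set the 4 JJN3 libraries against the 4 KMS11 libraries, and here a difference of at least 2-fold was also required for a call. Of the 17 members 2 were called higher in JJN3 and 4 lower, 6 in all, against 31.9% of all peaks, so the members' share was close to the background. The largest difference lay upstream of the main MEF2C promoter, at MEF2C peak 1 (5:88889285-88889889), which had 16.5, 23.0, 23.7 and 19.9 CPM in JJN3 and 1.55, 2.14, 4.20 and 1.96 in KMS11. All JJN3 libraries were far above all KMS11 libraries, and the difference was 3.13 ± 0.27 on the log2 scale, or 8.72-fold (edgeR adjusted p = 1.8e-15). MEF2C peak 2, next to it, was also higher in JJN3, by 1.29 ± 0.28 (edgeR adjusted p = 9.17e-05). MEF2C peak 3, the promoter itself, did not pass (-0.07 ± 0.22, edgeR adjusted p = 0.796), nor did the MEF2C sum under the fold rule (0.39 ± 0.12, edgeR adjusted p = 0.00662), for which 23% of genes were called.

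In the opposite direction, MEF2D peak 7 (1:156480683-156481278, in the gene) had 9.77, 9.66, 8.34 and 7.76 CPM in JJN3 and 31.3, 26.4, 37.2 and 29.4 in KMS11. The groups did not overlap, and the difference was -1.77 ± 0.21 on the log2 scale, a 3.4-fold lower level in JJN3 (edgeR adjusted p = 5.35e-11). All 4 JJN3 libraries stood above all 4 KMS11 libraries at 3 of the 17 members (MEF2C peaks 1, 2 and 5) and at 21% of all peaks, and the reverse held at 2 (MEF2A peak 1 and MEF2D peak 7) and at 21.3%. MEF2C peaks 1 and 2 and MEF2D peak 7 were called in all 12 alternative fits of this comparison.

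The other 3 line calls were close to the 2-fold limit. MEF2D peak 6 was lower in JJN3, with a difference of -1.15 ± 0.26 (edgeR adjusted p = 0.000176), and without the JJN3 DMSO, JJN3 GNE-781, KMS11 DMSO or KMS11 GNE-781 library the values of -0.92, -0.95, -0.95 and -0.95 were under the fold limit. MEF2C peak 4 was lower, at -1.12 ± 0.37 (edgeR adjusted p = 0.00864), and was not called without the JJN3 DMSO (-0.83), JJN3 combination (-0.98), KMS11 DMSO (-0.86) or KMS11 combination library (-0.99). MEF2C peak 6 was lower in JJN3, at -1.04 ± 0.29 (edgeR adjusted p = 0.00205), and was not called without the JJN3 DMSO (-0.99), JJN3 combination (-0.69) or KMS11 combination library (-0.70). That peak was picked by its values in libraries that are part of this comparison. Its p is therefore a description and no independent test. MEF2A peak 1 stood at -0.41 ± 0.15 (edgeR adjusted p = 0.0154) and MEF2D peak 3 at 0.44 ± 0.14 (edgeR adjusted p = 0.00545), both short of 2-fold.

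**Figure D5:**
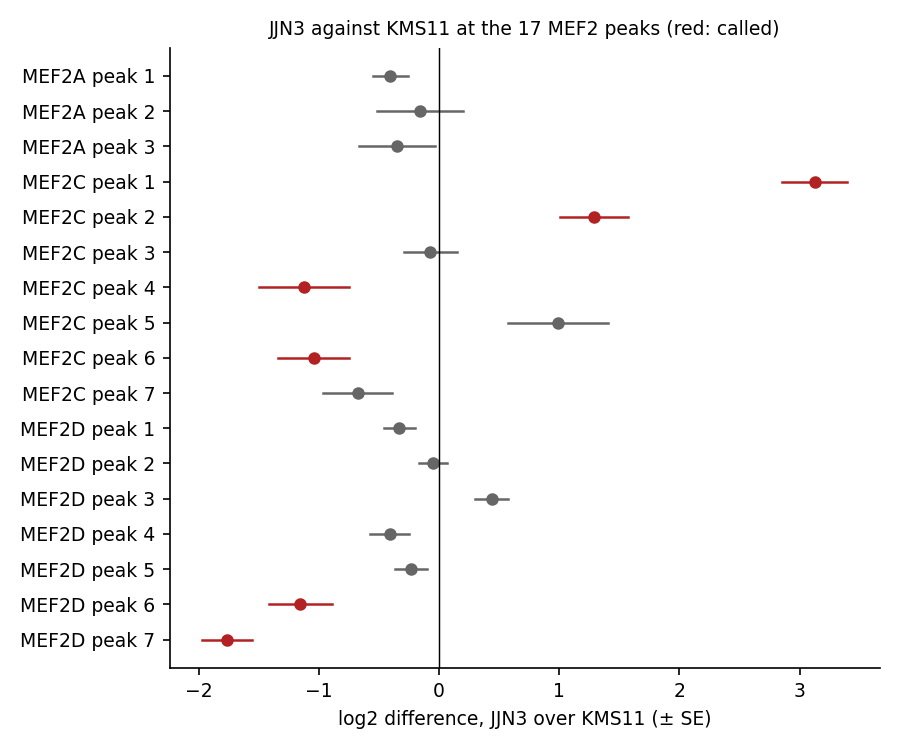
Log2 difference between JJN3 and KMS11 with SE (x axis, positive where JJN3 is higher) of the 17 MEF2 peaks (y axis), with called peaks in red. MEF2C peak 1 at 3.13 and MEF2D peak 7 at -1.77 are the extremes, and the main promoter peaks, MEF2C peak 3 and MEF2D peak 2, lie at -0.07 and -0.05.

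The drug effects were compared between the lines in the model with additive drug effects within each line, which has 2 residual degrees of freedom. Each effect there is estimated from the combination libraries too, so the ratios of single libraries given below are not the effects tested. For the effect of pomalidomide 0 of 17 members were called by edgeR, against 0.0675% of all peaks, and 2 had an unadjusted p under 0.05, with the lowest at MEF2D peak 6. There the effect in JJN3 minus that in KMS11 was 1.42 ± 0.53 (edgeR adjusted p = 0.389), with log2 ratios to DMSO of 0.85 and -0.14. For the effect of GNE-781 0 of 17 were called, against 0.00964% of all peaks, and 1 had an unadjusted p under 0.05, MEF2C peak 7 (1.27 ± 0.55, edgeR adjusted p = 0.619), with log2 ratios of 1.03 in JJN3 and 0.30 in KMS11. DESeq2 called 0 members and 0 of all peaks in both.

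Peaks elsewhere that followed MEF2C peak 6 most closely were found by the Pearson r of log2 CPM over the 8 libraries after each line's mean was subtracted. They were an intergenic peak nearest to RP11-244C20.2 (r = 0.996), the AMOTL2 promoter (0.991), a peak in WARS2 (0.987), an intergenic peak nearest to LINC01031 (0.986) and the NTRK3 promoter (0.985). Their changes under the combination ran from 1.02 at AMOTL2 to 2.47 at WARS2. For the MEF2C sum the closest genes were RP11-231N9.1 and CD274, which encodes the checkpoint ligand PD-L1 (both 0.995), ZNF442 (0.985), TRAV16 (0.984) and SUZ12P1 (0.976). For MEF2A they were RP11-546K22.1 (0.996), AC018735.1, INHBE, UMAD1 and LINC01192 (0.978), and for MEF2D AC074389.5 (0.99), GRK5, NKD2, FAM102A and LHPP (0.979). The points share depth and normalization, and these are the highest of all peaks or genes tested, so no p is given.

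Among the partners and regulators of MEF2, a list of 27 genes, 24 had a peak, and 134 of their 135 peaks were tested. The list was chosen with earlier results of these data known. Its genes given with values, here and in the paragraphs that follow, were picked after those values were seen. Their adjusted p-values therefore describe picked peaks and are no independent support. Under pomalidomide 4 were called higher and 1 lower, and under the combination 3 higher and 5 lower, or 3.73% and 5.97% of the list, against 1.25% and 4.79% of all peaks. The medians were 0.10 and -0.03, against 0.02 and 0 over all peaks. HDAC4, HDAC5 and HDAC9 encode class IIa deacetylases that bind MEF2. A peak in HDAC5 was higher in both comparisons (1.23 ± 0.33 and 1.26 ± 0.33, edgeR adjusted p = 0.0355 and 0.0131), with log2 ratios of 0.24 and 0.65 in JJN3 and 1.53 and 1.38 in KMS11. A peak in HDAC4 was higher under pomalidomide (0.81 ± 0.21, edgeR adjusted p = 0.0318) and another was lower under the combination (-0.79 ± 0.19, edgeR adjusted p = 0.00832). HDAC9 had 1 higher (1.97 ± 0.49, edgeR adjusted p = 0.0096) and 1 lower peak (-1.64 ± 0.33, edgeR adjusted p = 0.000905) under the combination.

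SIK3, a salt-inducible kinase that phosphorylates class IIa deacetylases, had a peak at 11:117077111-117077564 that was higher under pomalidomide (2.67 ± 0.63, edgeR adjusted p = 0.0141) and under the combination (2.79 ± 0.63, edgeR adjusted p = 0.00404), with log2 ratios of 2.64 and 3.55 in JJN3 and 2.26 and 1.95 in KMS11. A second SIK3 peak was lower under the combination (-1.04 ± 0.30). CAMK2D, a calcium-dependent kinase, had a peak that was lower in both comparisons (-1.10 ± 0.30 and -1.81 ± 0.33, edgeR adjusted p = 0.0477 and 0.000263). PPP3CA, the catalytic subunit of calcineurin, had 1 peak higher under pomalidomide (2.33 ± 0.61), with log2 ratios of 0.24 in JJN3 and 2.32 in KMS11, and 1 lower under the combination (-1.02 ± 0.31). These counts varied with the fit. The 5 calls under pomalidomide were fewer without the KMS11 DMSO, the KMS11 pomalidomide, the JJN3 combination or the KMS11 combination library. The 8 calls under the combination were fewer without the KMS11 DMSO or KMS11 combination library and more without the JJN3 DMSO library. Fewer of all peaks were called in each of these fits, so nothing is read from them about the list. DESeq2 called 0 and 2, against 72 and 394 of all 62234 peaks. Library totals alone gave 3 and 8, against 630 and 2674. A model with additive drug effects gave 14 under pomalidomide, against 3864. With GNE-781 alone edgeR called 0 of the 134, against 13 of all 62234 peaks, and 9 had an unadjusted p under 0.05. DESeq2 called 0 of the list and 0 of all peaks there.

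Between the lines 33 peaks of the list were higher in JJN3 and 24 lower, 42.5% of the list against 31.9% of all peaks. HDAC9 alone had 17 peaks, most of them called higher in JJN3, so 1 gene carried much of this share. Nothing is therefore read from it about the list as a whole. SIK2 and CAMK4 were also among the genes with peaks higher in JJN3, and NFATC2, a partner of calcineurin signalling, was among those lower. The HDAC9 promoter at 7:18086218-18087095 was higher in JJN3 by 3.44 ± 0.26 (edgeR adjusted p = 4.01e-18). The MEF2B gene had no peak under its own symbol. The promoter peak of the readthrough gene MEF2BNB-MEF2B (19:19169829-19170565) had 13.5 to 16.0 CPM in JJN3 and 17.9 to 24.3 in KMS11 and gave 0.06 ± 0.28 under pomalidomide and 0.13 ± 0.28 under the combination (edgeR adjusted p = 0.976 and 0.878). EP300, which GNE-781 inhibits, and MAPK7, a kinase of MEF2, also had no peak under their symbols.

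Of 5 genes known as MEF2 targets (KLF2, KLF4, NR4A1, JUN and BCL6), 16 peaks were tested. Under pomalidomide edgeR called 0, against 1.25% of all peaks, and 0 had an unadjusted p under 0.05. In the combination 1, an intergenic peak 10546 bp from JUN, which encodes an AP-1 subunit, was lower under the combination (-1.17 ± 0.33, edgeR adjusted p = 0.0219), 6.25% of the list against 4.79% of all peaks. Between the lines 2 were higher and 3 lower in JJN3, 31.2% of the list against 31.9% of all peaks, a share at the background. The KLF4 promoter was lower in JJN3, at -3.88 ± 0.24 (edgeR adjusted p = 1.67e-22). The levels of the MEF2 transcripts and proteins, and binding of MEF2 to these peaks, were not measured in these files.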

How the data were processed

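ATAC-seq counts of 8 libraries (2 lines, 4 treatments, 1 library each) were used. The authors deposited 1 table of raw counts per peak, not normalized, over a union of MACS2 peaks. Per the submitters' processing notes reads were handled on GRCh38 with tools that include Bowtie2 2.3.5.1, Trim Galore 0.6.4 with cutadapt 2.5, MACS2 2.1.1.20160309, SAMtools 1.10 and R 4.1.2. Not given in the sources used here are how peaks were joined, whether reads or fragments were counted, and the handling of duplicates and of the transposase offset; PCR copies would make counting intervals too narrow.

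In R 4.3.3, a filter on mean CPM, set at 2, kept (62234 of 62528 peaks, all 17 members), which were scaled by trimmed means of M-values and tested two-sided with edgeR 4.0.16 (quasi-likelihood, line as a block, 3 residual degrees of freedom weighed with 62.8 borrowed from all peaks), with Benjamini-Hochberg adjustment over all peaks. CPM values use the same scaling, and gene sums were scaled and tested as a table of their own, so they differ slightly from summed peak values. No SE is given where a change is so near 0 that its p is over 0.95. DESeq2 1.42.0 was an alternative, as were other scalings, no filter, each library left out, only the libraries compared, an additive drug model and the RefSeq gene span. Nothing in the labels says that libraries came from separate cultures, so the spread behind the p-values is that of these samples alone and may be technical; in treatment tests it is the disagreement of the lines.

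Members, gene lists and motifs were chosen with earlier results of these data known. Peaks were named by rule: the promoter peak nearest each start, every called member, the member with the lowest p where none was called, each gene's highest and lowest peaks, and the 5 closest profiles; MEF2C peak 2, MEF2D peak 1 and the list genes given with values were added after their values were seen. Sequences are from RefSeq (GRCh38.p14), where all 3 genes matched by symbol.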

Additional observations from a re-analysis of the deposited data

How the results depend on the processing

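Depth limits the low peaks most: MEF2C peak 6 had 2 counts in JJN3 under DMSO, and 1 library per line and treatment leaves no check within a line. With DESeq2 the number of called members was 0 under pomalidomide, 0 under the combination and 0 for the combination against GNE-781. Over all 62234 peaks DESeq2 called 72, 394 and 92, so nothing is read from these counts. MEF2C peak 6 had no adjusted p there. With each library left out in turn, member calls under pomalidomide, under the combination and for the combination against GNE-781 were lost in some fits. Fewer of all peaks were called in those fits too. The additive drug model called 2 under pomalidomide, MEF2C peak 6 and MEF2D peak 3, and 3864 of all 62234 peaks. The MEF2C sum, given as a description, was called in edgeR under the combination with library totals only (0.62) and with only the libraries compared (0.60), and under pomalidomide with the additive model (0.45); the cause was not tested. Between the lines DESeq2 did not call MEF2C peak 4 (adjusted p = 0.0588).

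Values near 0 at the promoter peaks changed sign, none of them called. MEF2C peak 3 under GNE-781 was 0.01 with library totals only and 0.01 with only the libraries compared, and ran from -0.22 to 0.38 with a library left out; under the combination it ran from -0.36 to 0.24. MEF2A peak 1 under pomalidomide ran from -0.24 to 0.02 in the same way. MEF2D peak 2 was -0.11 under pomalidomide and -0.04 under GNE-781 in the additive model, and with a library left out it ran from -0.17 to 0.18 and from -0.06 to 0.28. Of the other results tried, none changed direction. Treatments were compared within lines in every fit, since the line was a block.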
